A study of Mus musculus with 16 samples.

Results

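Tigit, the nectin-family genes Pvr, Nectin2 and Nectin3, and the genes of the ligands CD274, CD47, CD80 and CD276 and of the enzyme Nt5e were examined in the RNA of 4T1 and 67NR cells. These 9 genes of the 33072 in the count table were taken from a list of symbols, each of which matched 1 Ensembl gene of the mouse assembly GRCm38. Tigit was chosen by its difference in CIX response between the cell lines, so its values in every comparison, and the differences in response of all 9 genes, are given as a description without a test. The cells are BALB/c mouse mammary carcinoma lines from the same tumour, 4T1 being metastatic and 67NR non-metastatic. They had been treated in culture for 24 h with vehicle (DMSO) or with 15 µM CIX, an inhibitor of the cytosolic phospholipase cPLA2α, and each of the 4 groups held 4 samples described as biological replicates. Each line is a single cell line, so that a difference between the groups of 4T1 and 67NR is a difference between 2 lines and not between metastatic and non-metastatic tumours in general.

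TIGIT is an inhibitory receptor of the immunoglobulin superfamily that is known from T cells and natural killer cells. It binds the poliovirus receptor PVR (CD155) strongly and nectin-2 (CD112) and nectin-3 more weakly, and the activating receptor CD226 also binds PVR and nectin-2, and the receptor CD96 also binds PVR. CD274 (PD-L1) and CD80 are B7-family proteins that bind PD-1 and CD28 or CTLA-4 on T cells, CD276 (B7-H3) is a further B7-family protein, CD47 binds SIRPα on macrophages and restrains phagocytosis, and the surface enzyme CD73, encoded by Nt5e, makes adenosine from AMP.

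Levels are given as CPM, the usual depth-scaled counts, computed here from the estimated counts after TMM normalisation (a scaling of library sizes), and samples are named by the numbers 1 to 16 of their labels. Libraries held between 21715700 and 29450629 estimated counts (median 23961313), and 3 counts, the smallest level taken as detected, corresponded to between 0.102 and 0.138 CPM, which covers counting error only. The first principal component held 83.6% of the variance and separated the lines. Between replicates, sample 13 stood apart from the other vehicle treated 67NR samples (chi-square per gene 91.9 to 107, against 18 to 21.4 among the others) and sample 4 from the other CIX treated 4T1 samples (64.3 to 96, against 27 to 45.4), and values without them are given for Pvr and Cd276. Vehicle treated 4T1 samples differed by 33.3 to 116, most between samples 3 and 11, and CIX treated 67NR samples by 27.8 to 46.6. Of 10 epithelial markers (keratins, claudins, Epcam and Cdh1) the sum reached 4060 to 4460 CPM in vehicle and 4590 to 4960 CPM in CIX treated 4T1 cells and 1.32 to 7.05 CPM in 67NR cells, so that the 67NR cells nearly lacked the defining markers of an epithelial tumour. Within 4T1 the epithelial gene Epcam fell with CIX (315 ± 3.16 to 186 ± 11.9 CPM, limma-voom adjusted p = 1.28e-04), 1 of 8 tested markers called. Of these 8, 4 had a positive and 4 a negative log2 fold change, among them the keratin genes Krt19 (0.68, limma-voom adjusted p = 0.00373) and Krt7 (0.45, limma-voom adjusted p = 0.0053). Of 10 mesenchymal markers, with a sum of 11000 to 13500 CPM in 67NR and 3060 to 5620 CPM in 4T1 cells, 2 of 5 tested rose with CIX in 4T1, the filament gene Vim (1115 ± 68.9 to 2669 ± 183 CPM, adjusted p = 4.29e-05) and the transcription factor gene Twist1 (8.43 ± 0.33 to 16.2 ± 1.01 CPM, adjusted p = 4.62e-04, all limma-voom, SD, n = 4), and 0 of 9 were called in 67NR, where 5 had an unadjusted p below 0.05. Over all genes 5.32% were called higher and 3.95% lower in 4T1, and in 67NR 0.181% and 0.207%, with 32.8% at an unadjusted p below 0.05. The part of these changes in the levels of the members was not tested. The 5 endothelial markers summed to between 0.969 and 3.21 CPM. In these bulk samples, fewer cells of a type and less RNA per cell cannot be told apart.

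The 250 bases before the RefSeq start of 2 genes are shown because these members lay farthest apart in their CIX response in 4T1 cells, and because these windows do not overlap the gene's own GENCODE model. The Tigit window is chr16:43664185-43664434 on the minus strand and the Cd274 window chr19:29367188-29367437 on the plus strand, both of GRCm38 and both printed 5′ to 3′ on the strand of the gene.
Tigit: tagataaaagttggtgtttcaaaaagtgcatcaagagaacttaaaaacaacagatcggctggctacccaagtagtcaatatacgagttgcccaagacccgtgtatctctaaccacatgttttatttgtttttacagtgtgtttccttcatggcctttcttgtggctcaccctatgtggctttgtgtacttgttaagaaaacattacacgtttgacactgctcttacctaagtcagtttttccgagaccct
Cd274: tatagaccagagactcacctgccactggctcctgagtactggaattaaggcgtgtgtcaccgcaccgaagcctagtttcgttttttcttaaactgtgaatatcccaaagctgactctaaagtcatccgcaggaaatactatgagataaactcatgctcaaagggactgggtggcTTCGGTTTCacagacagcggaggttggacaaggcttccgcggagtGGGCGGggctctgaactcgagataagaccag
Capitals mark matches on either strand to TTCNNNGAA (STAT-type), GAAANNGAA (interferon regulatory factor type), GGGNNTTCC (NF-κB-type), GGGCGG (GC box), CCAAT or TATAAA. The Tigit window held no match, and its GC content was 40%. The Cd274 window, with a GC content of 50.4%, held GGGCGG and, on the opposite strand, GAAANNGAA, and these matches do not overlap. Of all 32851 RefSeq windows of this length, 32.7% held GGGCGG, 7.13% GAAANNGAA, 7.02% TTCNNNGAA, 4.98% GGGNNTTCC, 33.8% CCAAT and 12.4% TATAAA. RefSeq windows were matched for 8 of the 9 genes, all but Pvr, and among these GGGCGG was found for all but Tigit and Cd80, GGGNNTTCC for Nectin2 only, CCAAT for Cd276 only, and TTCNNNGAA and TATAAA for none. A match is a description of letters and not of binding.

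Tigit, the receptor gene (ENSMUSG00000071552, chromosome 16, 43648867 to 43664146, minus strand), was transcribed in both carcinoma lines and was lower with CIX in 67NR and higher with CIX in 4T1. Vehicle treated 67NR cells (samples 1, 5, 9 and 13) had 46.4, 48.2, 51.6 and 44.1 CPM, and CIX treated 67NR cells (samples 2, 6, 10 and 14) had 27.2, 26.4, 23.2 and 25.1 CPM. Vehicle treated 4T1 cells (samples 3, 7, 11 and 15) had 30.5, 26.9, 24.2 and 29.3 CPM, and CIX treated 4T1 cells (samples 4, 8, 12 and 16) had 71.2, 74.1, 81.4 and 67.9 CPM. Within each line the CIX samples thus lay entirely on one side of the vehicle samples, below them in 67NR and above them in 4T1. Ordered by level, the CIX treated 67NR cells (25.5 ± 1.74 CPM) and the vehicle treated 4T1 cells (27.7 ± 2.79 CPM) overlapped, whereas vehicle treated 67NR cells (47.6 ± 3.16 CPM) and CIX treated 4T1 cells (73.7 ± 5.74 CPM; SD, n = 4 each) lay apart from these and from each other. The log2 fold change of CIX against vehicle was 1.40 (SE 0.11) in 4T1 and -0.92 (SE 0.08) in 67NR, which is 2.63-fold higher and 1.89-fold lower. The difference between these responses was 2.31 on the log2 scale (SE 0.13), and between the vehicle treated lines Tigit was 1.73-fold lower in 4T1 (log2 difference -0.79, SE 0.10).

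When each sample was omitted in turn, the log2 fold change of Tigit lay between 1.33 and 1.44 in 4T1 and between -0.94 and -0.88 in 67NR. Its counts were between 510 and 2277 per sample. On the TPM scale, which divides counts by transcript length, it had 99.9 ± 6.9 TPM in CIX treated 4T1 cells against 231 ± 67.3 TPM for its ligand gene Pvr and 79.5 ± 12.6 TPM for Nectin2 (SD, n = 4). In vehicle treated 67NR cells Tigit had 64.8 ± 6.2 TPM, Pvr 100.2 ± 9.5 TPM and Nectin2 16.15 ± 2.18 TPM. In CIX treated 67NR cells Tigit had 34.5 ± 1.46 TPM, Pvr 168 ± 29.8 TPM and Nectin2 20.9 ± 4.42 TPM. In these 3 groups the mean level of Tigit lay between those of Pvr and Nectin2, whereas in vehicle treated 4T1 cells Tigit (40.1 ± 5.07 TPM) was below both Nectin2 (68.1 ± 11.2 TPM) and Pvr (111 ± 17.6 TPM).

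Most of the defining genes of T and natural killer cells were at or near 0 in these samples. Of 16 markers of these cells, 6 were at 0 counts in all 16 samples, namely Cd2, Nkg7, Klrd1, Ncr1, Prf1 and Gzmb, and the summed level of the list was between 1.23 and 1.56 CPM in vehicle treated and between 0.886 and 1.69 CPM in CIX treated 67NR cells. In 4T1 cells it was between 3.71 and 5.07 CPM with vehicle and between 2.9 and 3.47 CPM with CIX, where Lck, a kinase of T cell receptor signalling, gave 2.28 and 2.00 CPM of it on average. The leukocyte gene Ptprc had means of 1.23 CPM with vehicle and 0.50 CPM with CIX in 4T1 cells. In 67NR cells its means were 0.051 and 0.082 CPM. The part of such cells in the level of Tigit was not tested. Cd226, the activating receptor for the same ligands, and Pdcd1, the receptor of CD274, had 0 counts in all samples, and Cd96 had a mean of 0.0109 CPM in CIX treated 67NR cells and 0 counts in the other groups.

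The single Tigit transcript of the annotation is 919 bases long, and 67 of its 884 words of 31 bases (7.58%) also occur in transcripts of other genes. All of these words lie between base 811 and base 919, behind the coding sequence (base 60 to base 782), and they are shared with 663 genes, of which 449 are in the count table. The gene with the most, Gm43229 (27 words), is not among those of the table. Of the genes next in number of words, Olfr1469 (21 words) and 2210017I01Rik (20) had at most 3 and 4 counts per sample, the cytokine receptor gene Csf2rb2 had between 5 and 37 counts per sample, Sp110 between 11 and 177 and Myh9, which encodes non-muscle myosin heavy chain, between 11316 and 29692. Myh9 had a mean of 603 CPM in vehicle treated and 834 CPM in CIX treated 67NR cells, and of 535 and 974 CPM in 4T1 cells. The part of these words in the estimated Tigit counts was not tested. Among the other members, the share of such words was between 0 and 2.36%, with the most shared by Cd274 with Uty (56 words) and by Cd47 with Kcnj10 (42 words). Within 100 kb of Tigit the table held 2 other genes. Zbtb20, a zinc finger gene on the plus strand, was counted between 345 and 6911 times per sample, highest in sample 13, and Drd3, a dopamine receptor gene, at most 2 times.

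**Figure D1:**
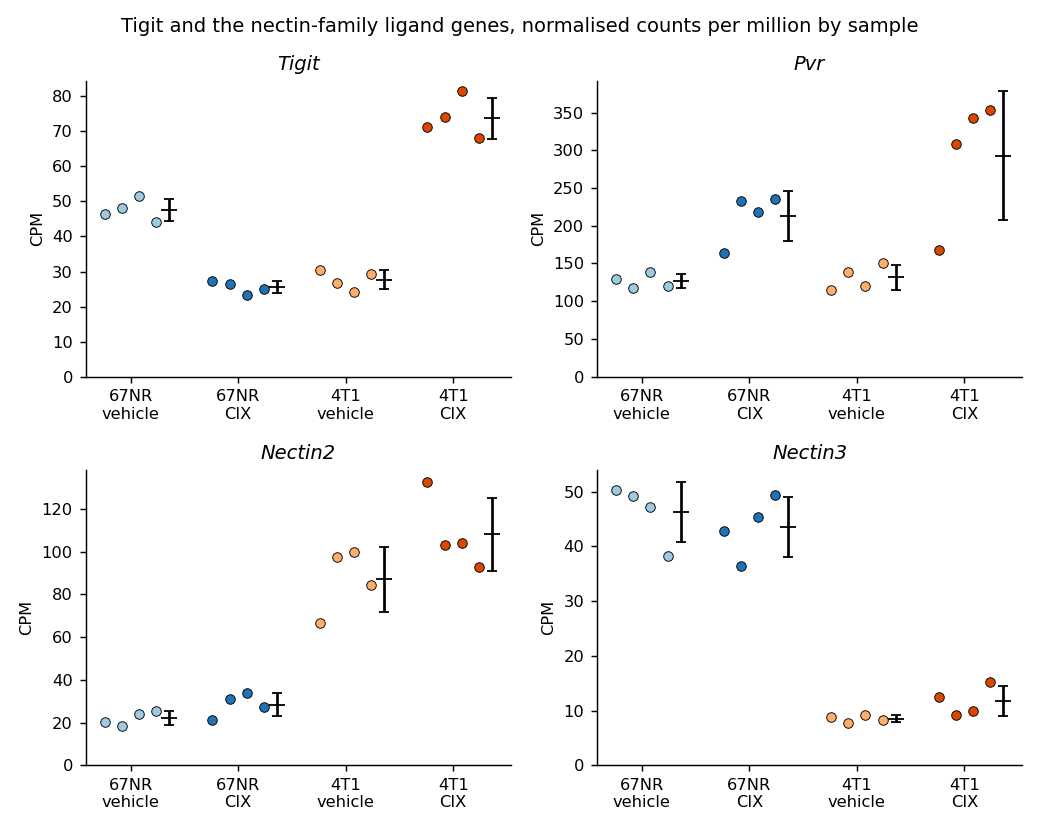
Normalised counts (CPM, linear axes from 0) of Tigit, Pvr, Nectin2 and Nectin3 in the 16 samples, by cell line and treatment. Points are samples in the order of their numbers, and the bars beside them give the mean and SD of the 4 samples. The Tigit points of the CIX treated cells lie below those of the vehicle treated cells in 67NR (23.2 to 27.2 against 44.1 to 51.6 CPM) and above them in 4T1 (67.9 to 81.4 against 24.2 to 30.5 CPM), whereas the Pvr points lie higher after CIX in both lines.

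The genes whose pattern over the 16 samples was most like that of Tigit, by Pearson's r of log2(CPM + 0.5) over the 12635 genes of either line, were Pbk (r = 0.972), Nsl1 (0.967), Ccna2 (0.958), Plk1 (0.954) and Ttf2 (0.936). Pbk encodes a protein kinase, Nsl1 a kinetochore subunit, Ccna2 cyclin A2, Plk1 polo-like kinase 1 and Ttf2 a transcription termination factor. Each of these also followed Tigit within the lines, with r between 0.965 and 0.995 over the 8 4T1 samples and between 0.883 and 0.983 over the 8 67NR samples. Pbk, for example, had a mean of 40.3 CPM in vehicle treated and 21.5 CPM in CIX treated 67NR cells, against 23.6 and 77.7 CPM in 4T1 cells. The least similar were Neo1 (r = -0.939), Snapc1 (-0.932) and Vash2 (-0.903), which encode the receptor neogenin, a subunit of the snRNA activating complex and a vasohibin. Neo1 had 260 and 316 CPM with vehicle and CIX in 67NR cells and 326 and 213 CPM in 4T1 cells. These values describe 16 points that fall into 4 groups and share their libraries, and they were picked from all genes for their size.

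**Figure D2:**
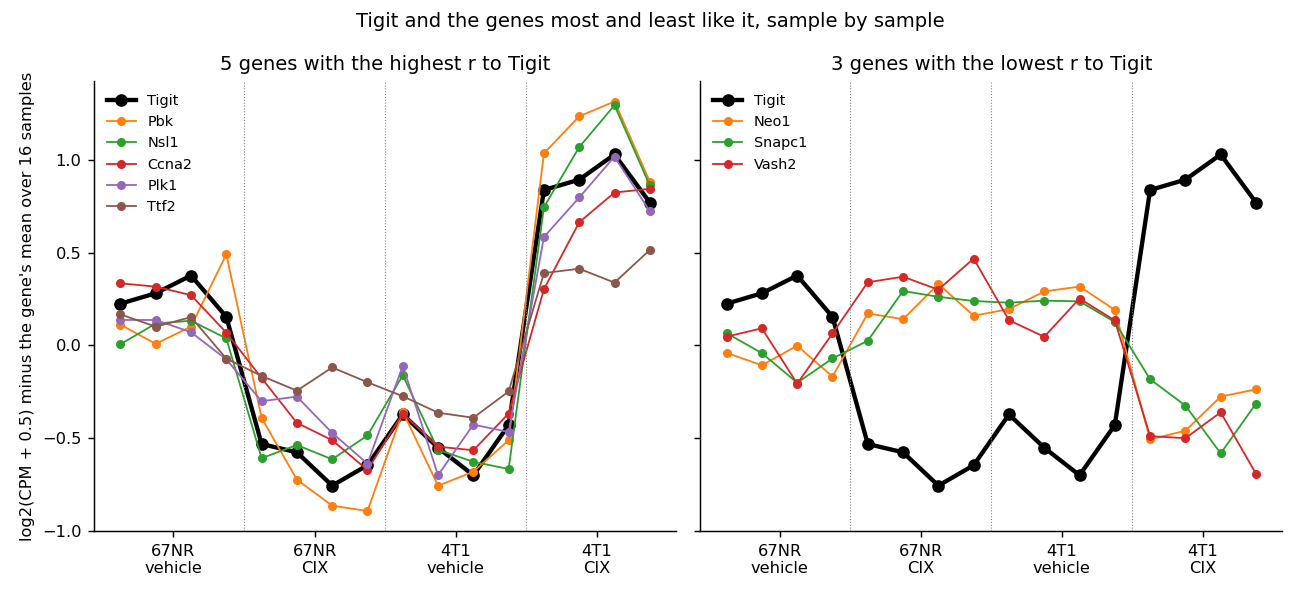
Level of Tigit (thick black line) and of the 5 genes most like it (left) and the 3 least like it (right) in each of the 16 samples, as log2(CPM + 0.5) minus the mean of the gene over the samples. Pbk, Nsl1, Ccna2, Plk1 and Ttf2 are lower with CIX in 67NR and higher with CIX in 4T1 as Tigit is (r between 0.936 and 0.972), and Neo1, Snapc1 and Vash2 take the opposite course (r between -0.939 and -0.903).

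Pvr (ENSMUSG00000040511, chromosome 7, 19903578 to 19921160, minus strand), which encodes the ligand that TIGIT binds most strongly, was higher after CIX in both lines without passing the threshold of an adjusted p below 0.001. In 67NR cells it had 129, 118, 138 and 120.3 CPM with vehicle and 164, 232, 219 and 235 CPM with CIX. In 4T1 cells it had 115, 139, 121 and 151 CPM with vehicle and 167, 309, 342 and 353 CPM with CIX. The groups did not overlap in either line, and the lowest CIX sample was sample 2 in 67NR and sample 4 in 4T1. The log2 fold change was 1.09 (SE 0.23, 2.13-fold, limma-voom with Benjamini-Hochberg adjusted p = 0.00461) in 4T1 and 0.72 (SE 0.12, 1.65-fold, limma-voom adjusted p = 0.00503) in 67NR. Without sample 4 the value in 4T1 was 1.34 (limma-voom adjusted p = 1.59e-04), and without sample 2 that in 67NR was 0.85 (limma-voom adjusted p = 6.98e-04), both past the threshold. Both omit the lowest CIX sample, which raises the value. In the other 7 of 8 fits of each line Pvr did not pass, with a limma-voom adjusted p up to 0.0143 in 4T1 and 0.0212 in 67NR. Under the DESeq2 test with all samples Pvr also passed in both lines, with an adjusted p of 4.12e-06 in 4T1 and 4.67e-07 in 67NR, and edgeR gave 0.00283 and 0.00457. The vehicle treated lines had about the same level, 132 ± 16.6 CPM in 4T1 and 126 ± 9.23 CPM in 67NR (SD, n = 4 each), with a log2 difference of 0.04 and a 95% interval from -0.19 to 0.27.

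Nectin2 (ENSMUSG00000062300, chromosome 7, 19716644 to 19750483, minus strand) and Nectin3 (ENSMUSG00000022656, chromosome 16, 46387706 to 46498525, minus strand) encode cell adhesion molecules that TIGIT binds more weakly, and they separated the lines in opposite directions. Nectin2 had between 18.3 and 25.3 CPM in vehicle treated 67NR cells and 66.8, 97.7, 99.7 and 84.3 CPM in vehicle treated 4T1 cells, which is 3.92-fold higher in 4T1 (log2 difference 1.97, SE 0.16, limma-voom adjusted p = 6.24e-06). Nectin3 had 50.4, 49.3, 47.2 and 38.2 CPM in vehicle treated 67NR cells and between 7.69 and 9.16 CPM in vehicle treated 4T1 cells, which is 5.46-fold lower in 4T1 (log2 difference -2.45, SE 0.12, limma-voom adjusted p = 4.7e-07). The groups did not overlap for either gene. With CIX, Nectin2 had between 21.4 and 33.9 CPM in 67NR and 133, 103, 104 and 92.6 CPM in 4T1 cells, and its log2 fold changes of 0.34 (SE 0.17, adjusted p = 0.199) and 0.30 (SE 0.16, adjusted p = 0.149) did not pass limma-voom's test. Nectin3 had between 36.5 and 49.5 CPM in CIX treated 67NR cells (log2 fold change -0.11, SE 0.11, limma-voom adjusted p = 0.531). In CIX treated 4T1 cells it had 12.4, 9.18, 9.97 and 15.2 CPM, just above all the vehicle samples, with a log2 fold change of 0.42 (SE 0.18, limma-voom adjusted p = 0.0947).

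Cd274 (ENSMUSG00000016496, chromosome 19, 29367455 to 29388095, plus strand), the gene of PD-L1, was low in every group and was lowest, relative to its line's vehicle cells, in CIX treated 4T1 cells. Vehicle treated 4T1 cells had 6.80, 8.56, 6.71 and 11.2 CPM and CIX treated 4T1 cells 2.06, 1.76, 1.93 and 2.62 CPM, with no overlap. In 67NR cells it had 2.22, 2.45, 2.02 and 1.79 CPM with vehicle and 2.35, 1.77, 1.91 and 3.40 CPM with CIX, and these groups overlapped. The CIX treated 4T1 cells were thus at the level of the 67NR cells, with means of 2.09, 2.12 and 2.36 CPM in CIX treated 4T1 and vehicle and CIX treated 67NR cells. The counts behind these values were between 156 and 273 per sample in vehicle treated and between 41 and 65 in CIX treated 4T1 cells. Cd274 was not tested in any comparison because its TPM was below 1 in more than 3 samples of each, as in all 4 CIX treated 4T1 samples (0.615 to 0.903 TPM) and all 4 vehicle treated 67NR samples (0.587 to 0.856 TPM). With no filter its log2 fold change in 4T1 was -1.93 (SE 0.25, limma-voom adjusted p = 3.75e-04), where 1.9% of 21834 genes were called lower, and with a filter of 1 CPM in 4 samples it was -1.98 (limma-voom adjusted p = 3.01e-04). When a CIX treated 4T1 sample was left out, only 3 samples were below 1 TPM. Cd274 then passed the TPM filter through the vehicle samples alone, where it is higher. Its log2 fold change lay between -2.09 and -1.91, and no test is given for these fits. With no filter the value in 67NR was 0.12 (SE 0.24, limma-voom adjusted p = 0.819).

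Cd80 (ENSMUSG00000075122, chromosome 16, 38455561 to 38496335, plus strand), which encodes a B7 ligand of CD28 and CTLA-4, was detected in 67NR cells only at a low level and at or below 2 counts per sample in 4T1 cells. Vehicle treated 67NR cells had 0.831, 0.845, 0.950 and 0.893 CPM and CIX treated 67NR cells 1.39, 1.20, 1.14 and 2.61 CPM, so that all CIX samples lay above the vehicle samples. In 4T1 cells, 3 counts were found in all vehicle samples together and 2 counts in all CIX samples together. The ratio of 67NR to 4T1 was 27.8 (95% counting interval 9.2 to 138) with vehicle and 79.6 (21.6 to 663) with CIX. Cd80 was not tested under the TPM filter, and with no filter its log2 fold change with CIX in 67NR was 0.75 (SE 0.31, limma-voom adjusted p = 0.203).

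**Figure D3:**
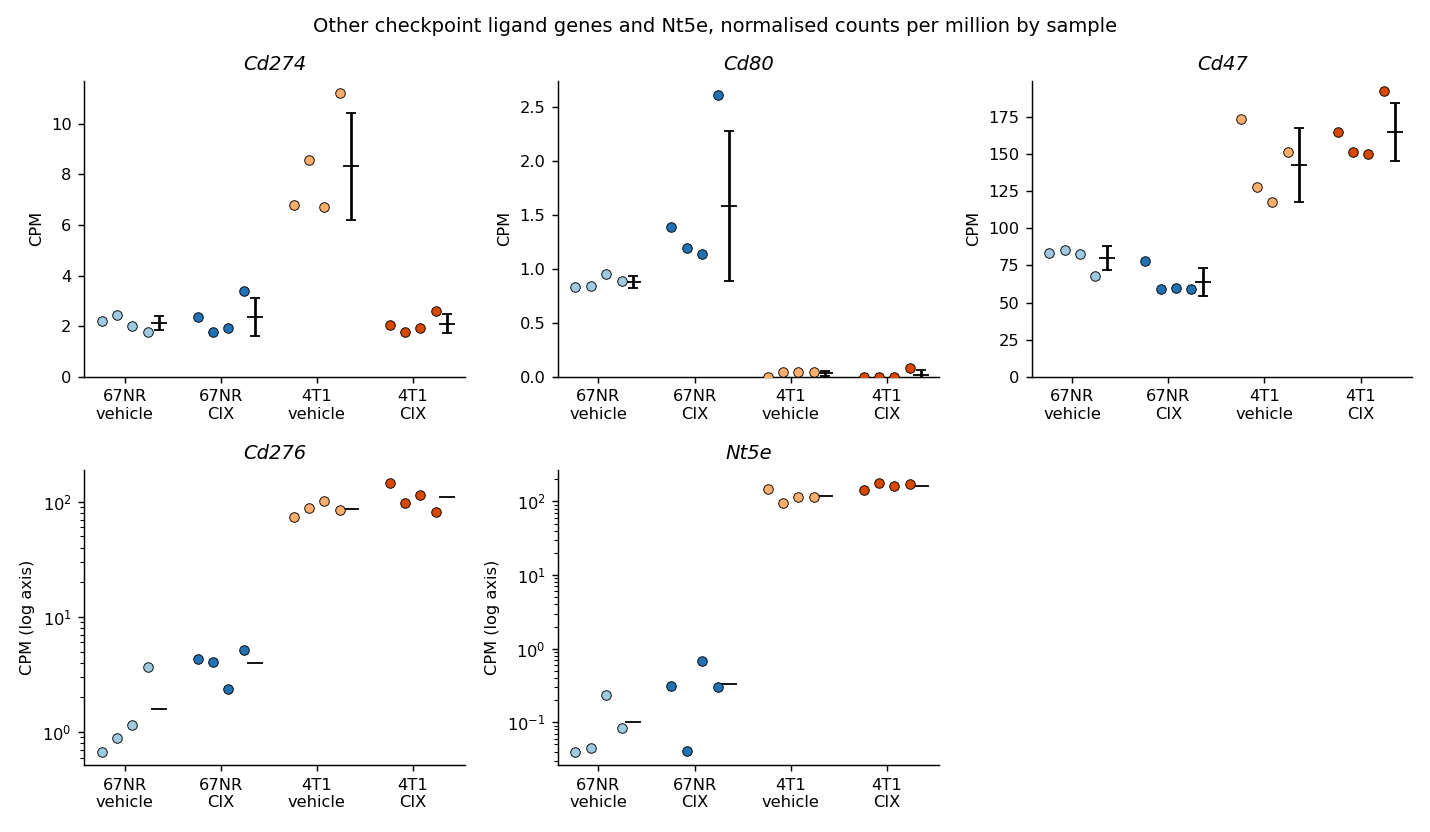
Normalised counts (CPM) of Cd274, Cd80 and Cd47 (linear axes from 0, bars with mean and SD of 4 samples) and of Cd276 and Nt5e (log axes, bars at the mean) in the 16 samples. Cd274 lies at 6.71 to 11.2 CPM in the vehicle treated 4T1 samples and at 1.76 to 3.40 CPM in the other groups, and Cd276 and Nt5e lie higher in all 4T1 samples than in all 67NR samples.

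Cd276 (ENSMUSG00000035914, chromosome 9, 58524298 to 58555437, minus strand), which encodes B7-H3, and Nt5e (ENSMUSG00000032420, chromosome 9, 88327197 to 88372092, plus strand), which encodes the adenosine-forming enzyme CD73, were higher in all 4T1 than in all 67NR samples, and Nt5e was nearly absent from 67NR. Cd276 had 73.9, 87.8, 102 and 84.4 CPM in vehicle treated 4T1 cells and 0.673, 0.889, 1.15 and 3.66 CPM in vehicle treated 67NR cells, with sample 13 highest among the latter. The log2 difference was 6.08 (SE 0.39, limma-voom adjusted p = 1.49e-06), and the ratio of the summed counts was 55.1 (95% counting interval 46.9 to 65.1). At 2.3 TPM, sample 13 was the only vehicle treated 67NR sample above a TPM of 1, and Cd276 passed the filter through it. It held 86 of the 152 counts in 67NR, and without it the ratio was 96 (75.4 to 124) and the log2 difference 6.53. CIX treated 67NR cells had 4.28, 4.04, 2.37 and 5.18 CPM, and their log2 fold change of 1.59 (SE 0.47, limma-voom adjusted p = 0.0464) did not pass. Without sample 13 it was 2.10. Cd276 entered that fit through the CIX samples alone, where it is higher, so no test of it is given. CIX treated 4T1 cells had 145, 97.7, 114 and 81.1 CPM and overlapped the vehicle cells (log2 fold change 0.29, SE 0.18, limma-voom adjusted p = 0.214).

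Nt5e had 147, 96.1, 116 and 115 CPM in vehicle treated 4T1 cells and between 0.0396 and 0.238 CPM in vehicle treated 67NR cells. The summed counts were 11261 and 10, a ratio of 1150 (95% counting interval 623 to 2390). Sample 9 held 6 of these 10 counts, and without it the ratio was 2120 (827 to 7770). With CIX, 4T1 cells had 144, 177, 164 and 174 CPM, which overlapped the vehicle samples (log2 fold change 0.47, SE 0.13, limma-voom adjusted p = 0.019), and 67NR cells had 0.308, 0.0412, 0.683 and 0.305 CPM. The summed counts of the CIX treated cells were 16588 and 31, a ratio of 504 (95% counting interval 355 to 743). Nt5e was left out of the comparison of the lines by the TPM filter because it was below 1 TPM in all 67NR samples, and it was called with no filter (limma-voom adjusted p = 1.02e-07).

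Cd47 (ENSMUSG00000055447, chromosome 16, 49800533 to 49915010, plus strand), the gene of the phagocytosis-restraining ligand of SIRPα, was 1.76-fold higher in vehicle treated 4T1 than in vehicle treated 67NR cells. It had 174, 128, 118 and 151 CPM in the former and 83.5, 85.3, 82.8 and 68.2 CPM in the latter, and all 4T1 samples lay above all 67NR samples. The log2 difference was 0.81 (SE 0.13, limma-voom adjusted p = 5.42e-04), and with 1 sample omitted the limma-voom adjusted p was between 2.15e-04 and 0.002. The samples whose removal lost the call were 1, 5, 9, 13 and 15. With sets of consecutive sample numbers as a block, the call was also lost. After CIX, 67NR cells had 78.1, 59.3, 59.5 and 59.2 CPM (log2 fold change -0.34, SE 0.11, limma-voom adjusted p = 0.0593) and 4T1 cells had 165, 151, 150.3 and 193 CPM (log2 fold change 0.20, SE 0.14, limma-voom adjusted p = 0.276). Both groups overlapped with their vehicle samples.

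Counted over the members other than Tigit, 0 of the 6 tested in 4T1 and 0 of the 5 tested in 67NR passed the threshold of limma-voom for CIX against vehicle. At an unadjusted p below 0.05 the counts were 3 of 6 and 3 of 5, where 51.1% and 32.8% of all genes were, edgeR's quasi-likelihood test called 0 in each line (8.8% and 0.397% of all genes), and DESeq2 called 1 in each, which was Pvr (26.5% and 9% of all genes). Of all 11679 genes tested in 4T1, 5.32% were called higher and 3.95% lower, and of the 11583 tested in 67NR 0.181% and 0.207%. The 67NR calls were 21 higher and 24 lower, against 14 and 25 with scaling by library size alone. The samples of the groups did not overlap in 2 of the 6 members tested in 4T1, Pvr and Nectin3, where 39.9% of all genes did not, and in 1 of the 5 in 67NR, Pvr, where 23.3% did not. The filter left out of the 4T1 comparison Cd80 and Cd274, whose log2 fold changes with no filter were -0.65 (SE 0.66, limma-voom adjusted p = 0.551) and -1.93.

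Between the vehicle treated lines, 4 of the 5 members tested were called, Nectin2, Cd47 and Cd276 as higher in 4T1 and Nectin3 as lower, and Pvr was not. Over all 11059 genes 20.4% were called higher and 19.6% lower, and 61.6% of genes did not overlap, as these 4 did not. With no filter 7 of the 8 members were called, the added ones being Cd274 (log2 difference 1.91, SE 0.24, limma-voom adjusted p = 5.81e-05) and Nt5e as higher and Cd80 as lower in 4T1 (limma-voom adjusted p = 8.77e-06), where 14.5% of 22724 genes were called higher and 14% lower.

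The difference in CIX response between the lines (4T1 minus 67NR, log2 scale, no test) was 2.31 for Tigit and between -1.29 and 0.54 for the other members tested. It was 0.37 (SE 0.28) for Pvr, -0.04 (SE 0.24) for Nectin2, 0.53 (SE 0.22) for Nectin3, 0.54 (SE 0.19) for Cd47, -1.29 (SE 0.54) for Cd276 and -0.85 (SE 0.83) for Nt5e, whose 67NR level rests on 10 counts with vehicle and 31 with CIX. With 1 sample omitted the Nt5e value lay between -1.55 (without sample 6) and -0.39 (without sample 10), and that of Cd276 between -1.79 and -0.99. The value of Nectin2 was within 1 SE of 0, and it kept its sign in 10 of 16 fits with 1 sample omitted, between -0.18 and 0.05. Of the 12635 genes in this comparison 4.8% were called higher and 3.06% lower.

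**Figure D4:**
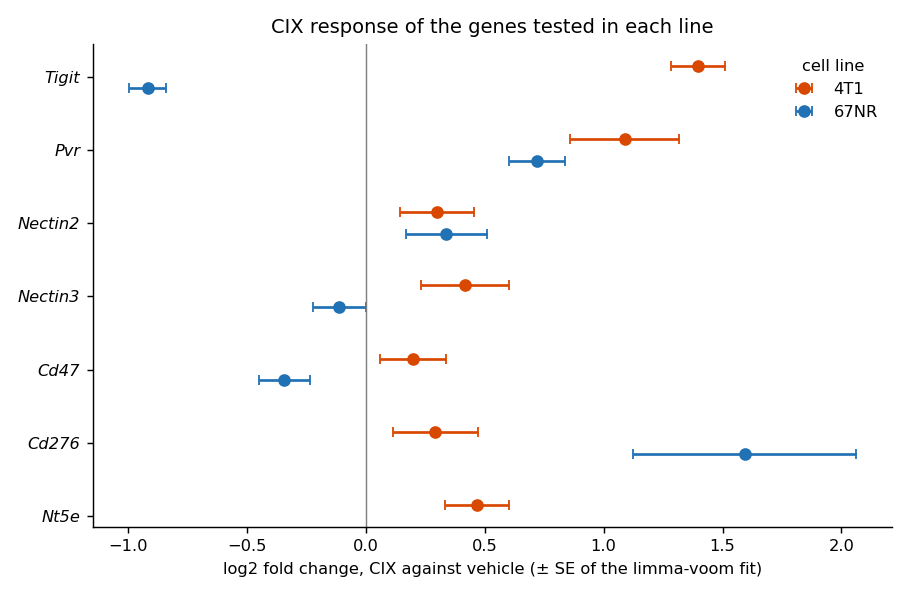
Log2 fold change of CIX against vehicle (x axis, error bars SE of the limma-voom fit) for the members tested in 4T1 (orange) and 67NR (blue). Tigit lies at 1.40 in 4T1 and at -0.92 in 67NR, Pvr lies above 0 in both lines, and Nt5e has no 67NR value because it was left out there.

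Of 69 further genes of the same pathways, sorted into 8 lists, 35 were tested in 4T1 and 4 of these passed with CIX, 2 higher and 2 lower. Of all genes 5.32% were called higher and 3.95% lower, so that the count was near that background in this fit. With sets of consecutive sample numbers as a block, 20% of the listed genes tested were called, where 9.79% of all genes were. Lgals3, which encodes galectin-3, rose from 274 ± 45.0 to 647 ± 72.3 CPM in 4T1 cells (log2 fold change 1.23, SE 0.13, limma-voom adjusted p = 1.61e-04). Cmtm4, a relative of Cmtm6 and like it known to stabilise PD-L1 protein, rose from 127 ± 9.9 to 220 ± 24.4 CPM (log2 fold change 0.78, SE 0.11, limma-voom adjusted p = 5.41e-04). Qpctl, whose glutaminyl cyclase modifies CD47 at its SIRPα binding site, fell from 35.4 ± 2.0 to 12.5 ± 1.7 CPM (log2 fold change -1.53, SE 0.13, limma-voom adjusted p = 6.74e-05). Tnfsf9, the ligand of the costimulatory receptor 4-1BB, fell from 71.0 ± 3.0 to 26.6 ± 10.9 CPM (log2 fold change -1.51, SE 0.21, limma-voom adjusted p = 6.3e-04; SD, n = 4 in each group). Lgals3 and Qpctl passed in 8 of 8 fits with 1 sample omitted, and Cmtm4 and Tnfsf9 in 1 of 8, that without sample 4 of the CIX treated cells.

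Over the lists in 4T1, the genes called were 1 of 3 tested in the B7 and PD-1 list, 1 of 4 among other checkpoint receptors and ligands, 1 of 5 in the CD47 list and 1 of 3 in the costimulatory TNF family. None was called by limma-voom among 2 other genes of the TIGIT and nectin list, 6 of the adenosine list, 5 NKG2D ligands and 7 genes of the interferon gamma receptor pathway, of which 1, 2, 2 and 5 had an unadjusted p below 0.05 (51.1% of all genes did, and 5.32% and 3.95% were called higher and lower). Over all lists edgeR called 3 of the 35 genes, where it called 8.8% of all genes, and DESeq2 10, where it called 26.5%, so that both counts were near their background. Nectin1, the nearest of these to the members, had 11.4 ± 5.6 CPM with vehicle and 33.3 ± 5.7 CPM with CIX in 4T1 cells (log2 fold change 1.64, SE 0.30, limma-voom adjusted p = 0.0024). Of the interferon gamma receptor genes 6 of 7 had a negative value in 4T1, with a median of -0.45, and in 67NR 4 had a positive and 3 a negative value, with a median of 0.12, 0 called by limma-voom and 6 at an unadjusted p below 0.05 (32.8% of all genes). In 4T1 the transcription factor gene Irf1 had 94.3 ± 13.2 and 66.1 ± 10.8 CPM (limma-voom adjusted p = 0.0163). Over all 35 genes the median was -0.07 against -0.01 for all genes.

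In 67NR, 1 of 34 listed genes passed with CIX and was lower, where 0.207% of all genes were. Thbs1, which encodes thrombospondin-1, a secreted ligand of CD47, fell from 192 ± 24.8 to 75.0 ± 10.2 CPM (SD, n = 4, log2 fold change -1.38, SE 0.12, limma-voom adjusted p = 5.81e-04), and it missed the threshold whichever sample was omitted, with values between -1.44 and -1.29. Of the 30 listed genes that were tested for CIX in both lines, the difference in response was called for 3, 2 higher and 1 lower, where 5.56% and 3.23% of the 10627 such genes were. Lgals3 (1.63, SE 0.19, adjusted p = 2.57e-05) and the nucleoside transporter gene Slc29a1 (1.43, SE 0.24, adjusted p = 4e-04) had higher values in 4T1, and Qpctl a lower one (-1.47, SE 0.14, adjusted p = 5.16e-06), all by limma-voom. The death receptor gene Fas, which had between 10 and 15 counts in CIX treated 67NR samples and entered this comparison through 4T1 alone, is given no test. With each of the 16 samples omitted in turn, Lgals3 and Qpctl passed 16 times and Slc29a1 9 times.

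Between the vehicle treated lines, 15 of 31 listed genes were called, 6 higher and 9 lower in 4T1, where 20.4% of all genes were called higher and 19.6% lower, so that the count was near that background. In the CD47 list 4 of 5 were called. Sirpa, the gene of the CD47 receptor, was 6.08-fold lower and Lrp1, a receptor for calreticulin, 3.29-fold lower in 4T1, and Calr (1.43-fold lower) and Qpctl (1.51-fold higher) passed in 3 and 4 of 8 fits with 1 sample omitted. The 3 tested of the 8 genes of the costimulatory TNF family were all higher in 4T1, Tnfsf9 16.9-fold, Fas 6.92-fold and Cd40 6.13-fold. Cd40 and Fas were low in vehicle treated 67NR cells, with means of 1.07 and 1.34 TPM (15 to 29 and 21 to 39 counts per sample). In the adenosine list the transporter gene Slc29a1 was 7.58-fold and the adenosine deaminase gene Ada 4.95-fold lower in 4T1, beside the higher Nt5e. Of the interferon gamma receptor pathway, Ifngr2 was 4.47-fold higher, Jak1 2.01-fold lower and the inhibitor gene Socs1 8.41-fold lower. Cmtm6 was 3.74-fold higher, and Lgals3 (6.12-fold) and the NKG2D ligand gene Ulbp1 (3.36-fold) were lower in 4T1. The limma-voom adjusted p-values of these 15 genes were at most 6.4e-04.

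The summed level of 10 myeloid and B cell markers was between 9.62 and 14.1 CPM with vehicle and 36.2 and 41.8 CPM with CIX in 67NR cells, and between 52.1 and 88.7 and between 132 and 198 CPM in 4T1 cells. Most of it was Cd68, a lysosomal protein gene, with a mean of 165 CPM in CIX treated 4T1 cells and of 8.82 CPM in vehicle treated 67NR cells, where Lyz2, the gene of a lysozyme, had 1.66 CPM. The part of such cells in the levels of the members was not tested.

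**Figure D5:**
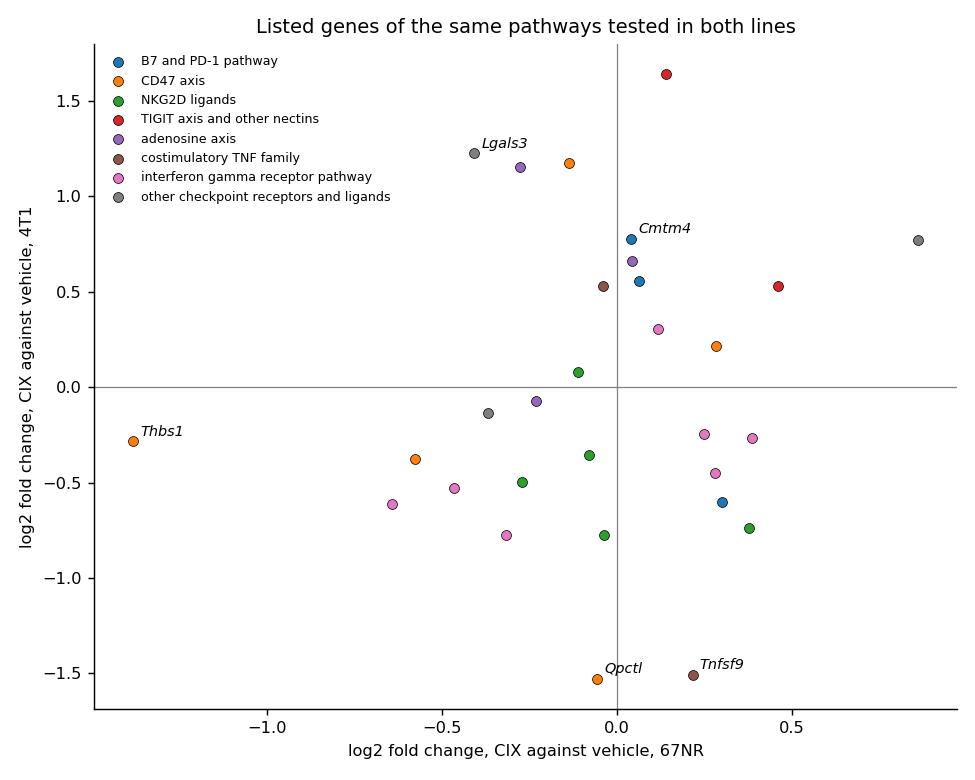
Log2 fold change of CIX against vehicle in 67NR (x axis) and in 4T1 (y axis) for the 30 listed pathway genes tested in both lines, coloured by list, with the genes called in either line named. Lgals3 and Cmtm4 lie at 1.23 and 0.78 and Qpctl and Tnfsf9 at -1.53 and -1.51 in 4T1, and Thbs1 lies at -1.38 in 67NR.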

How the data were processed

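RNA of 4T1 and 67NR cells, 4 samples per group, was sequenced from stranded mRNA libraries. The authors quantified transcripts with salmon (Salmon 0.12 in the submitters' processing notes) on Ensembl GRCm38, and the authors deposited tximport gene sums, which are estimated counts that were neither normalised nor filtered. The notes name GRCh38 as build, whereas the gene identifiers are of mouse. All 16 columns were mapped by the sample numbers of the labels, and 32911 of 33072 genes had a GENCODE M21 entry.

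Estimated counts were rounded. TPM was approximated from counts and mean transcript length, and genes were left out of a comparison where over 3 of its samples had a TPM under 1 (for the difference in response, only if so in both lines). This filter removes genes that are silent in one group. limma-voom with TMM (limma 3.58.1, edgeR 4.0.16, R 4.3.3) called genes at a Benjamini-Hochberg adjusted p below 0.001, adjusted over all genes tested. Alternatives were edgeR's quasi-likelihood test, DESeq2 1.42.0, other scalings and filters, all 16 samples in a common fit, a threshold of 0.05 and leaving out each sample, and the scripts were tested on simulated data. The p-values measure the spread between these samples. Replicates differed by a chi-square of at least 18 per gene, so none was a repeated run of the library of another. Whether the libraries came from separate cultures was not tested. The members and lists were chosen with earlier results of these data known. The text names the 9 members, listed genes that were called (at most the 4 largest of a list), the 5 most and 3 least similar to Tigit, genes within 100 kb of it, and genes sharing words of 31 bases with a member, of which those with the most for Tigit, Cd274 and Cd47 are given. Nectin1, Irf1, the marker genes and the receptor genes were named in addition, after their values were seen. Intervals of count ratios are exact binomial and cover counting error only. Promoter sequences are from RefSeq (GRCm38.p6).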

Additional observations from a re-analysis of the deposited data

Results flagged for a closer look

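Within the groups of 4 samples, 6 of 36 combinations of member and group had 1 sample far from the other 3 by Dixon's ratio. Chance gives about 1 in 20, but 2 of the 6 are Cd80 in 4T1 at 0 to 2 counts, where the ratio is near 1 by construction. Cd47 was at 68.2 CPM in sample 13 of the vehicle treated 67NR cells (others 82.8 to 85.3 CPM) and at 78.1 CPM in sample 2 of the CIX treated 67NR cells (others 59.2 to 59.5 CPM). Cd276 was at 3.66 CPM in sample 13 of the vehicle treated 67NR cells (others 0.673 to 1.15 CPM). Cd80 was at 2.61 CPM in sample 14 of the CIX treated 67NR cells (others 1.14 to 1.39 CPM). In 4T1 cells Cd80 was at 0 in sample 3 with vehicle, where the others had 1 count each, and at 0.0804 CPM (2 counts) in sample 16 with CIX, where the others had 0 counts. Tigit was flagged because every CIX sample lay above the vehicle samples in 4T1 and below them in 67NR, with a difference of 2.31 in log2 fold change, and this difference was not tested since Tigit was chosen for it.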

How the results depend on the processing

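The log2 fold changes of Tigit kept their direction in both lines under all alternatives run, and its difference in response was between 2.25 and 2.36 when single samples were left out. The count of members called with CIX in 4T1 (0) was 1 with DESeq2 or all 16 samples in a common fit (Pvr, adjusted p = 4.12e-06 and 2.83e-04), 1 with no filter or a CPM filter (Cd274), 2 at a threshold of 0.05 (Pvr, Nt5e) and between 0 and 2 without single samples, the 2 being Pvr and Cd274 without sample 4. Cd274 entered that fit only through the vehicle samples, where it is higher, so its call there is not a test of its response. In 67NR (0) it was 1 with DESeq2 (Pvr), 2 at 0.05 (Pvr, Cd276) and between 0 and 1 without single samples. Between the vehicle treated lines (4) it was 7 with no filter and between 3 and 5 without single samples. Where a 67NR sample was left out, Cd274 and Nt5e passed the filter through the 4T1 samples alone, where they are higher, and were counted. The log2 difference of Pvr between the lines turned negative without sample 5 (-0.035) or sample 13 (-0.023) and was between -0.035 and 0.14 over the single samples omitted. The counts of listed pathway genes called were, for CIX in 4T1 (4), 10 with DESeq2, 9 in the common fit, 17 at 0.05 and 2 to 4 without single samples. For CIX in 67NR (1) they were 3, 2 and 6, and 0 to 0 without single samples. For the lines (15) they were 25 with no filter, 24 with the CPM filter, 25 in the common fit, 25 at 0.05 and 17 to 21 without single samples, and as shares of the listed genes tested 48.4% became 39.7%, 61.5%, 64.1% and 80.6%, where 40% of all genes became 28.4%, 47.1%, 52% and 67.5%. For the difference in response (4, with Fas) they were 7 with DESeq2 and 2 to 6 without single samples. The cause of these changes was not tested, except that the filters differ in which genes they let in. Over all genes, the 1082 called with CIX in 4T1 became 3096 with DESeq2, 2722 in the common fit, 4981 at 0.05 and 286 to 1047 without single samples. The 45 in 67NR became 1042, 145 and 2057, and 0 to 71. The 993 of the difference in response became 1981 with DESeq2, and the 4424 between the lines 7460 at 0.05. With library size alone the calls in 4T1 were 508 higher and 529 lower in place of 621 and 461, those in 67NR 14 and 25 in place of 21 and 24, and that scaling shifted the median of all genes in 4T1 by -0.06. The labels give the 16 samples different numbers and state no pairing. A replicate block of consecutive numbers (1 to 4, 5 to 8 and so on), chosen after seeing the data, called 0, 0 and 3 members (4T1, 67NR, lines), losing Cd47 between the lines (adjusted p = 0.00253), and 7, 0, 13 and 5 listed genes (the last for the difference in response), and over all genes 1143, 0, 3015 and 1093. As shares of the listed genes tested, the block called 20%, 0%, 41.9% and 12.8%, where 9.79%, 0%, 27.3% and 8.65% of all genes were called. Deviations from the group means correlated above 0.1 in 7 of 24 pairs of samples of such a set and in 11 of 72 other pairs. Of the 4 vehicle and CIX pairs in 4T1 it was 3 (r = 0.393, 0.302 and 0.181, with 0.0611 for samples 7 and 8). All 4 were positive, but not every one was above 0.1, and the labels state no pairing. The fit without the block is therefore the one reported, and whether the samples were paired in culture is not known. Depth limits Cd80 in 4T1 and Nt5e in 67NR, which rest on a few counts.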
